A study of Homo sapiens with 6 samples.

Results

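The genes of the unfolded protein response and of its ATF4 branch were examined in DLD-1 cells that express DKK1. Of the 34 genes listed, 33 were measured by a probe set that carries their symbol alone, out of 18404 genes on the array, and the probe set with the highest mean over the 6 arrays was used where a gene had several. PDIA3 was the exception, because its probe sets are shared with the pseudogene PDIA3P1. DLD-1, an established human line from a colorectal adenocarcinoma, carries mutated APC and does not express DKK1 of its own. DLD-1/DKK1 cells carried a lentiviral vector from which doxycycline induces V5-tagged human DKK1 together with a green fluorescent protein, and DLD-1/Mock cells carried a lentivirus without the DKK1 gene. Both groups received doxycycline for a day before RNA extraction. The labels give the concentration as 10 mg/ml, whereas the methods give it in micrograms per ml. There were 3 dishes per group, 1 array each, and it is not given in the sources used here whether the dishes go back to more than 1 transduction, so that p-values measure the spread between dishes.

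Proteins that enter the secretory route are folded in the endoplasmic reticulum (ER) by chaperones and disulphide isomerases, and molecules that fail to fold are returned to the cytosol and degraded (ER-associated degradation, ERAD). When unfolded protein accumulates, 3 sensors of the ER membrane respond. ERN1 (IRE1) splices the XBP1 mRNA, ATF6 is cut to release a transcription factor, and EIF2AK3 (PERK) phosphorylates eIF2alpha, which slows translation in general and favours that of ATF4. ATF4 in turn drives genes of amino acid synthesis and uptake, and it also responds to amino acid shortage without ER stress. DKK1 is itself a secreted protein with many disulphide bonds, and secretory cells of the intestine such as goblet cells are known to depend on this response.

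The arrays report a log2 expression value per probe set, so that a difference of 1 is a doubling. Array medians lay between 6.76 and 6.86. The array of Mock 2 stood apart, with correlations across probe sets of 0.9953 to 0.9969 with the other 5 arrays, which had at least 0.9973 among themselves. DKK1 had 12.30, 12.38 and 12.36 in DLD-1/DKK1, against 5.15, 5.74 and 5.01 in DLD-1/Mock, as the labels state. The epithelial markers EPCAM, KRT8, KRT18 and CDH1 lay at percentile 97.6 of all probe sets or higher, whereas KRT20, a marker of mature enterocytes, was dim at percentile 32.8. CDX2 lay at 89.1, VIL1 at 83.3 and CDX1 at 55.7. Leukocyte markers ran from percentile 9.83 (PTPRC) to 56.6 (CD68) and fibroblast markers from 7.09 (LUM) to 57.7 (COL1A1). Endothelial markers ran from 23.0 (KDR) to 41.7 (CDH5). All of these lay below EPCAM, KRT8, KRT18, CDH1, CDX2 and VIL1, whereas CDX1 and KRT20 lay within their range. The macrophage markers CD68 (log2 fold change -0.26, limma adjusted p = 0.345) and CD14 (-0.27, limma adjusted p = 0.462) had all DLD-1/DKK1 arrays below DLD-1/Mock, and their part in the results was not tested. ITGAM (-0.02), PTPRC and CD3E had overlapping groups. KRT8, KRT18, CDX1, COL3A1 and PECAM1 also had all DLD-1/DKK1 arrays below DLD-1/Mock, and VIL1 had all above. Of all genes, 9.80% were wholly below in this way and 9.69% wholly above. Log2 fold changes were above 0 for 5 of 8 epithelial, 1 of 5 leukocyte, 2 of 6 fibroblast and 0 of 5 endothelial markers measured, and 0 passed the test described below.

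Some promoters of these genes carry elements that the pathway is known to act through. Examples are shown first to give the letters that the counts after them refer to. Windows of 300 bases around the annotated start (250 before it, 50 from it on) were available from RefSeq (GRCh38.p14) for 32 members and 27305 genes in all, and PDIA3 and SHMT2 had none. Exact letters were searched on both strands. The ER stress element (ERSE, bound by ATF6 with NF-Y) is CCAAT, 9 bases of any kind and CCACG. ERSE-II is ATTGG, any base and CCACG. The core of the element bound by XBP1 (UPRE) is TGACGTGG, and the composite element of ATF4 and C/EBP factors is TGATGNAAN. In the following stretches, which end at the base before the start and run 5′ to 3′ along the gene, capitals mark these letters on either strand. HSPA5 and HSP90B1 stand for the chaperones with ERSE, HYOU1 for ERSE-II with an overlapping UPRE core, XBP1 for itself as the transcription factor of the ERN1 branch, and ASNS and CHAC1 for the ATF4 genes.
HSPA5 (chr9:125241344-125241593, minus strand): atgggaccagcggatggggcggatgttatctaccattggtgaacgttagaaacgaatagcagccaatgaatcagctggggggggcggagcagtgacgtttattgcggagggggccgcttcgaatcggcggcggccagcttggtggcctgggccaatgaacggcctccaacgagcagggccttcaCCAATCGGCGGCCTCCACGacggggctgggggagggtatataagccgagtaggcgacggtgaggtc
HSP90B1 (chr12:103930160-103930409, plus strand): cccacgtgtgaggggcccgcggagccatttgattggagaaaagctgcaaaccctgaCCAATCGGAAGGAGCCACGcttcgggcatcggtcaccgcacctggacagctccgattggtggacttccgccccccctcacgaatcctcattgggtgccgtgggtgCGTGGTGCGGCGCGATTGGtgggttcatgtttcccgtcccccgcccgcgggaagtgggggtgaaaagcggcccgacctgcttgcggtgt
HYOU1 (chr11:119057206-119057455, minus strand): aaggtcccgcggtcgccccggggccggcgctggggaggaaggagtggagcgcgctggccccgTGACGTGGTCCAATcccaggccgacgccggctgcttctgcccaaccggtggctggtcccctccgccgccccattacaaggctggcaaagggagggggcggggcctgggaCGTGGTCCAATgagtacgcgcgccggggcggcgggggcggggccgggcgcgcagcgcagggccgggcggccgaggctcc
XBP1 (chr22:28800570-28800819, minus strand): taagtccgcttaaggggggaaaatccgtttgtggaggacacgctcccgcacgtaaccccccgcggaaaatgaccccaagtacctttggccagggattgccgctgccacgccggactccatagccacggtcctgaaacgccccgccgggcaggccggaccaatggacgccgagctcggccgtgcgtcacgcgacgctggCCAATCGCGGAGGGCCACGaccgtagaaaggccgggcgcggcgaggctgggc
ASNS (chr7:97872409-97872658, minus strand): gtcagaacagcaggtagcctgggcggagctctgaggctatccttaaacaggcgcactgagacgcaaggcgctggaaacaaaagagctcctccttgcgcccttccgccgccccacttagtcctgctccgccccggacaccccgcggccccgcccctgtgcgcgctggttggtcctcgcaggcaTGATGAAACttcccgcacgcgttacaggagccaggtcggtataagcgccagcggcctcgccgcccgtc
CHAC1 (chr15:40953221-40953470, plus strand): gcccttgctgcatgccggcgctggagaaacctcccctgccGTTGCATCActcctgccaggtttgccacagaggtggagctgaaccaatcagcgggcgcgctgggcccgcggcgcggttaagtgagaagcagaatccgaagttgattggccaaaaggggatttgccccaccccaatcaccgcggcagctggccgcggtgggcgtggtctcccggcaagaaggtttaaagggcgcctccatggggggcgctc

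ERSE letters were found in the windows of 7 of 32 members (21.9%), against 25 of all 27305 genes (0.0916%). They lay in HSPA5, HSP90B1, CALR, CANX, PDIA6 and CRELD2, which made up 6 of the 13 ER chaperones, and in XBP1, whereas the windows of the sensors ERN1, ATF6 and EIF2AK3 held none of the searched letters. ERSE-II was found in HYOU1, SDF2L1 and HERPUD1 (9.38% of members, against 0.0696% of all genes). In HYOU1 it occurred at 2 places, and the UPRE core overlapped the distal one. The ATF4 element was found in ASNS, SLC3A2, CHAC1 and HERPUD1, that is in 12.5% of members against 4.45% of all genes, and in none of the ER chaperones. A match describes letters in a window and is no evidence of a bound factor, and a gene without one may carry a variant of the element or have it outside the window.

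**Figure D1:**
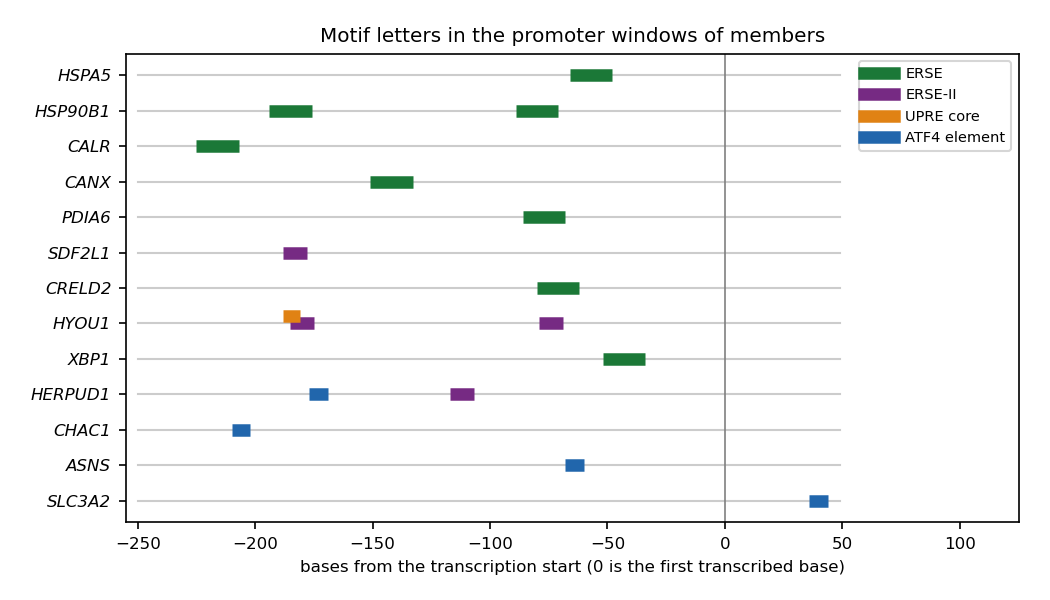
Positions of the motif letters (coloured blocks) in the promoter windows of the 13 members that hold any, as bases from the transcription start (horizontal axis), with the first listed window per gene and the second for PDIA6. ERSE and ERSE-II lie in chaperones, XBP1 and HERPUD1, and the ATF4 element lies in HERPUD1, CHAC1, ASNS and SLC3A2.

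The comparison of DLD-1/DKK1 with DLD-1/Mock gave small differences throughout the group. From here on, a fold change is on the log2 scale, DLD-1/DKK1 minus DLD-1/Mock, unless it is written as a fold. Among the 33 measured members, 25 had a log2 fold change above 0 and 8 below, with a median of 0.04. With each array centred on its median, which moved the median of all probe sets by 0.05, these counts were 31 and 2. The median of members was then 0.09, and without DKK1 2 it was 0.03. The highest were the chaperones DNAJC3 (0.18), PDIA4 (0.16) and HYOU1 (0.15) and the stress regulator DDIT4 (0.15), and the lowest were ERN1 (-0.08) and the ubiquitin ligase SYVN1 (-0.07). No member passed an adjusted p of 0.05 in limma over all probe sets, where 28 of 32321 (0.0866%) did, 0.0371% higher and 0.0495% lower in DLD-1/DKK1. Counted per gene, 0.136% passed. The adjusted p of members ran from 0.398 to 0.984.

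At an unadjusted p under 0.05 in limma there were 3 members, PDIA4, HYOU1 and DDIT4, all higher in DLD-1/DKK1. Of all genes, 4.67% were so called higher and 5.45% lower. A dimmer probe set of ATF4, left out of these counts by the rule, was lower, at -0.16 (limma unadjusted p = 0.0079). The count of 3 became 10 after median centring, 6 with the trended and robust prior and 5 with array weights. It was 2 with quantile normalisation or cyclic loess, and 2 to 4 with 1 array left out. Median centring also moved the median of all probe sets by 0.05. The shares of all genes under these settings are not given, so these counts cannot be read as a result about the members. Values of the groups did not overlap for 12 members, 11 higher and 1 lower in DLD-1/DKK1, against 9.69% and 9.80% of all genes. A two-sided exact permutation test gave 0.1 for each of these 12, which is the smallest p that 3 against 3 dishes can reach. The 95% intervals are not corrected for the number of genes, so each holds for its own member and not for all members jointly. Their highest end was 0.36 (1.29-fold, DNAJC3) and their lowest -0.21 (0.863-fold, ERN1). For 32 of the 33 members the whole interval lay within 0.3 of 0. The interval of the dimmer ATF4 probe set, not counted here, reached -0.27.

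The lean above 0 has to be read beside that of other bright genes. All members lay at percentile 62.8 or higher in brightness. Of the 8596 genes at least as bright as the dimmest member (DNAJB9), 63.0% had a log2 fold change above 0 with a median of 0.02, against 75.8% of members and a median of 0.04. Over all 18404 genes the share was 46.4% and the median -0.01. Likewise, 16.1% of the bright genes had all DLD-1/DKK1 arrays above all DLD-1/Mock arrays and 7.14% the reverse, and an unadjusted p under 0.05 came with a higher value in 7.26% and a lower one in 3.61%. Mock 2 moved along with this. Its mean over the members was 0.02 below the Mock average, and so was its mean over the bright genes. Without Mock 2, 21 of the 33 members lay above 0 and the median was 0.03. The part of brightness and of this array in the lean was not tested further.

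**Figure D2:**
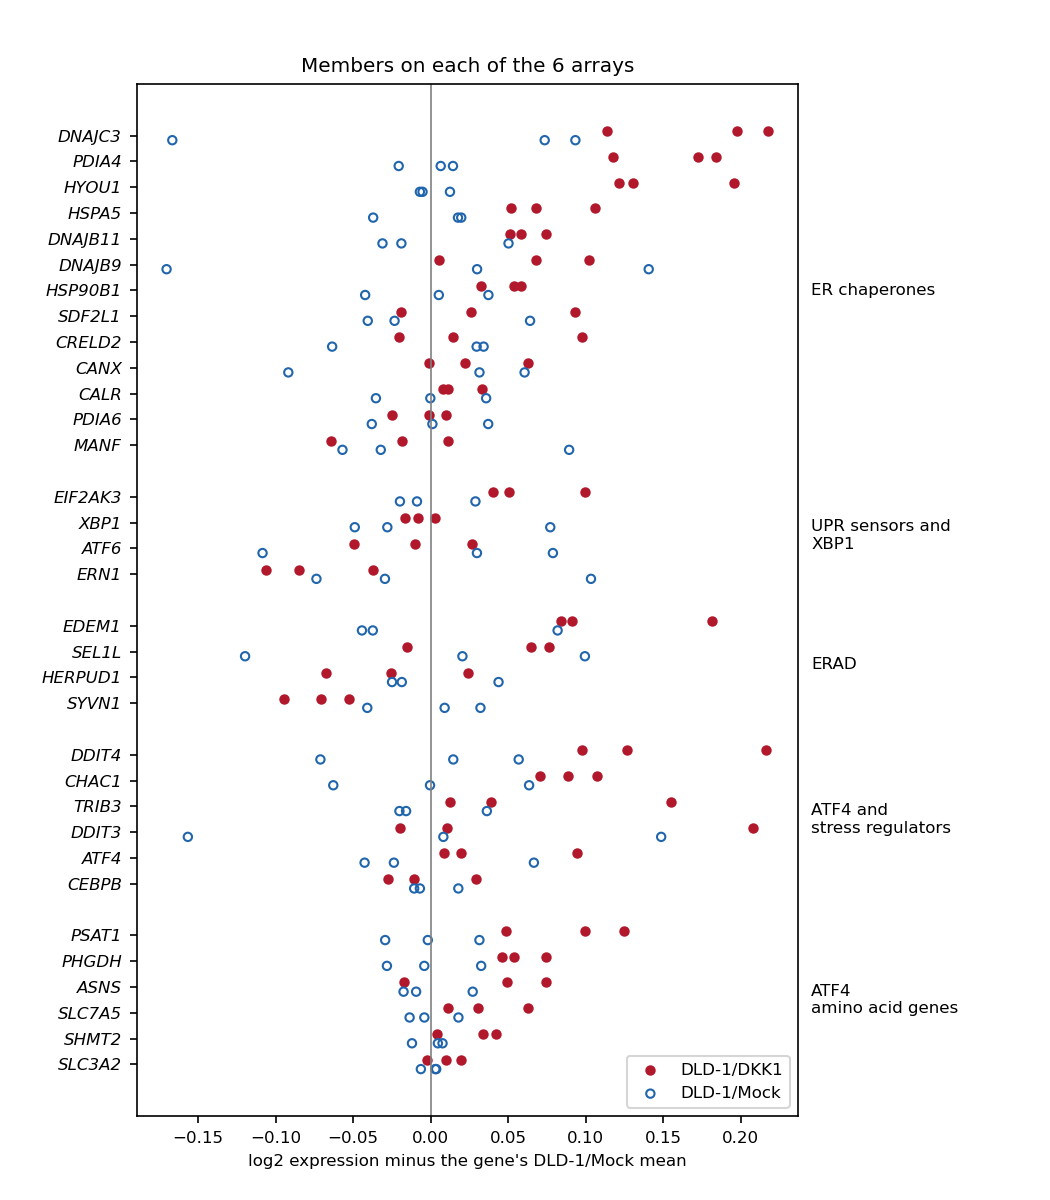
Log2 expression of each measured member on each array, minus its DLD-1/Mock mean (horizontal axis), with filled points for the 3 DLD-1/DKK1 arrays and open points for the 3 DLD-1/Mock arrays. PDIA4 and HYOU1 show separated groups, while DNAJC3, DNAJB9 and DDIT3 show wide DLD-1/Mock values.

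ER chaperones and folding factors had 11 of 13 members above 0 and a median log2 fold change of 0.05, and 0 passed. PDIA4, a disulphide isomerase with several thioredoxin-like domains, had 11.66, 11.67 and 11.60 in DLD-1/DKK1, against 11.50, 11.46 and 11.49 in DLD-1/Mock. The lowest DLD-1/DKK1 value thus lay above the highest DLD-1/Mock value, by more than either group spread. The means were 11.64 ± 0.04 and 11.48 ± 0.02 (SD, n = 3 each), which differed by 0.16 (SE 0.04, limma adjusted p = 0.398). HYOU1, a large HSP70-like chaperone that acts as exchange factor of HSPA5, had 10.60, 10.67 and 10.59 in DLD-1/DKK1 and 10.48, 10.46 and 10.46 in DLD-1/Mock. Its groups were likewise separate, and the fold change was 0.15 (SE 0.04, limma adjusted p = 0.422). With any 1 array left out the log2 fold change stayed between 0.14 and 0.18 for PDIA4 and between 0.13 and 0.16 for HYOU1.

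HSPA5 (BiP), the major HSP70 of the ER lumen that keeps the sensors inactive, had 12.40, 12.43 and 12.38 in DLD-1/DKK1, against 12.35, 12.29 and 12.35 in DLD-1/Mock. The groups did not overlap, but the difference was only 0.08 (SE 0.04, limma adjusted p = 0.599), a fold of 1.05. DNAJC3 (p58IPK), a J-domain protein that restrains PERK signalling, was outside the rule for naming and is given because its fold change was the highest. It had 9.84, 9.82 and 9.74 in DLD-1/DKK1 and 9.70, 9.46 and 9.72 in DLD-1/Mock. Here Mock 2 was far below the other arrays, and without it the log2 fold change was 0.09 in place of 0.18. Leaving out Mock 2 also turned the chaperones DNAJB9 to -0.03, CANX to -0.02, CALR to -0.0003 and MANF to 0.02.

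The remaining chaperones differed less. DNAJB11, a J-domain partner of HSPA5, had 0.06, with groups apart only in the third decimal. HSP90B1 (GRP94), the HSP90 of the ER, had 0.05. The lectin chaperones CANX and CALR, which hold glycoproteins during folding, had 0.03 and 0.02. SDF2L1 and CRELD2, small ER stress-inducible proteins, had 0.03 each, while the isomerase PDIA6 (-0.01) and the secreted ER stress factor MANF (-0.02) lay just below 0. In all of these except DNAJB11 the groups overlapped.

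Of the sensors, none passed, and 3 of 4 members with XBP1 lay below 0. EIF2AK3 had 8.33, 8.32 and 8.38 in DLD-1/DKK1, against 8.26, 8.27 and 8.31 in DLD-1/Mock. These values did not overlap, with a fold change of 0.06 (SE 0.04, limma adjusted p = 0.637). ERN1 had 8.49, 8.51 and 8.56 in DLD-1/DKK1 and 8.52, 8.70 and 8.57 in DLD-1/Mock, with overlapping groups and a fold change of -0.08 (SE 0.06, limma adjusted p = 0.684). Mock 2 held its highest value, and without that array the difference was -0.02. XBP1 had 11.50, 11.52 and 11.51 in DLD-1/DKK1, against 11.60, 11.49 and 11.47 in DLD-1/Mock. Its values on the DLD-1/DKK1 arrays lay inside the range of DLD-1/Mock, and the fold change was -0.01 (SE 0.05, 95% interval -0.12 to 0.10, limma adjusted p = 0.966). ATF6 had -0.01. The probe set sums over the XBP1 mRNA, so that spliced and unspliced forms cannot be told apart, and activation of ERN1, ATF6 or EIF2AK3 as proteins was not measured.

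ERAD genes went both ways, with 2 of 4 above 0, a median of 0.01 and 0 passed. EDEM1, a lectin-like protein that takes misfolded glycoproteins out of the folding cycle, had 8.70, 8.79 and 8.70 in DLD-1/DKK1, against 8.57, 8.57 and 8.69 in DLD-1/Mock. Mock 3 nearly reached the DLD-1/DKK1 arrays, and the fold change was 0.12 (SE 0.05, limma adjusted p = 0.561). SYVN1 (HRD1), the ubiquitin ligase of the ERAD channel, had 10.32, 10.34 and 10.36 in DLD-1/DKK1 and 10.37, 10.45 and 10.42 in DLD-1/Mock. By the probe sets used for the counts, this was the only member whose DLD-1/DKK1 arrays all lay below DLD-1/Mock. Its fold change was -0.07 (SE 0.04, limma adjusted p = 0.610). SEL1L, the partner that stabilises SYVN1, had 0.04 (-0.02 without Mock 2) and HERPUD1, a scaffold of the same complex, -0.02, both with overlapping groups. Without Mock 2 the median of the ERAD genes was -0.03.

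**Figure D3:**
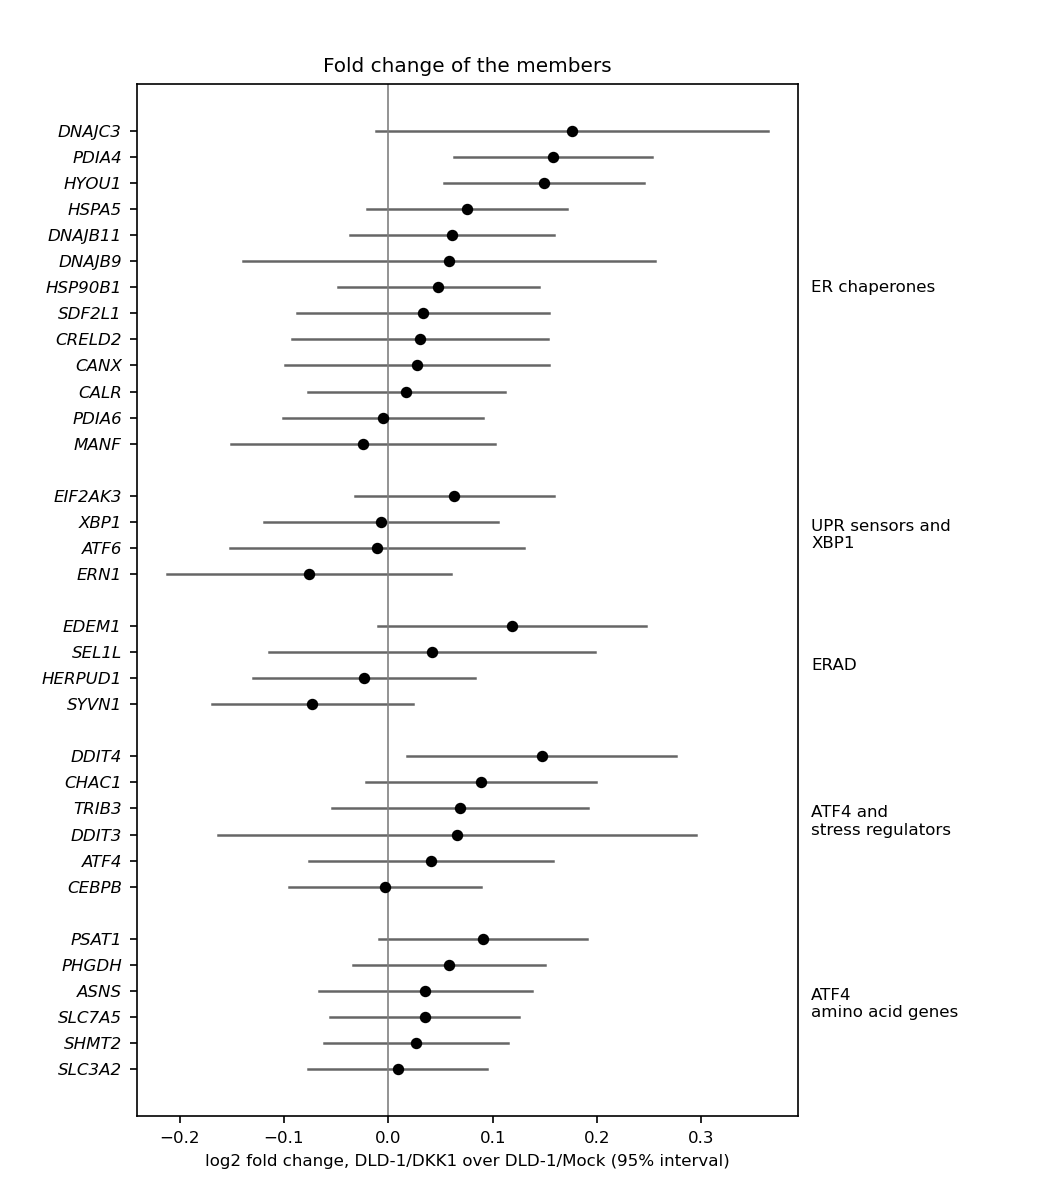
Difference in log2 expression, DLD-1/DKK1 minus DLD-1/Mock (horizontal axis), of the measured members by role, with points for the limma estimate and lines for its 95% interval (3 arrays per group). Intervals of PDIA4, HYOU1 and DDIT4 lie above 0, that of ERN1 reaches -0.21 and that of DNAJC3 reaches 0.36.

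In ATF4 and the stress regulators 5 of 6 members lay above 0, with 0.07 as their median, and 0 passed. This median rested in part on DKK1 2 and was 0.02 without it. DDIT4 (REDD1), an inhibitor of mTORC1 signalling that also responds to hypoxia and glucocorticoids, had 10.05, 10.14 and 10.02 in DLD-1/DKK1, against 9.94, 9.98 and 9.85 in DLD-1/Mock. The groups were apart, with a fold change of 0.15 (SE 0.05, limma adjusted p = 0.516). CHAC1, which degrades glutathione and is induced by ATF4 with CHOP, had 10.23, 10.24 and 10.26 in DLD-1/DKK1 and 10.09, 10.22 and 10.16 in DLD-1/Mock. These were also apart, at 0.09 (SE 0.05, limma adjusted p = 0.592). DDIT3 (CHOP), the proapoptotic factor of prolonged ER stress, had 8.35, 8.58 and 8.38 in DLD-1/DKK1, against 8.38, 8.21 and 8.52 in DLD-1/Mock. It had the widest spread between dishes of all members, its groups overlapped, and the fold change was 0.07 (SE 0.10, limma adjusted p = 0.834). Leaving out DKK1 2 or Mock 2 turned the DDIT3 fold change just below 0. TRIB3, a pseudokinase that ATF4 and CHOP induce, had 0.07 (0.03 without DKK1 2), and CEBPB, a partner of ATF4 on composite elements, -0.0031.

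ATF4 itself was covered by a pair of probe sets that went in opposite directions. The brighter, here called A, had 12.07, 12.16 and 12.08 in DLD-1/DKK1, against 12.13, 12.04 and 12.02 in DLD-1/Mock, and the groups differed by 0.04 (SE 0.05, limma adjusted p = 0.797). The other, B, had 10.71, 10.76 and 10.81 in DLD-1/DKK1, against 10.91, 10.90 and 10.96 in DLD-1/Mock. All of its DLD-1/DKK1 values lay below DLD-1/Mock, and the difference was -0.16 (SE 0.04, limma adjusted p = 0.411). Neither passed, and the annotation ties them to different transcript records of ATF4. A direction for the ATF4 transcript can therefore not be given. The protein is governed mainly by translation, which arrays do not show.

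**Figure D4:**
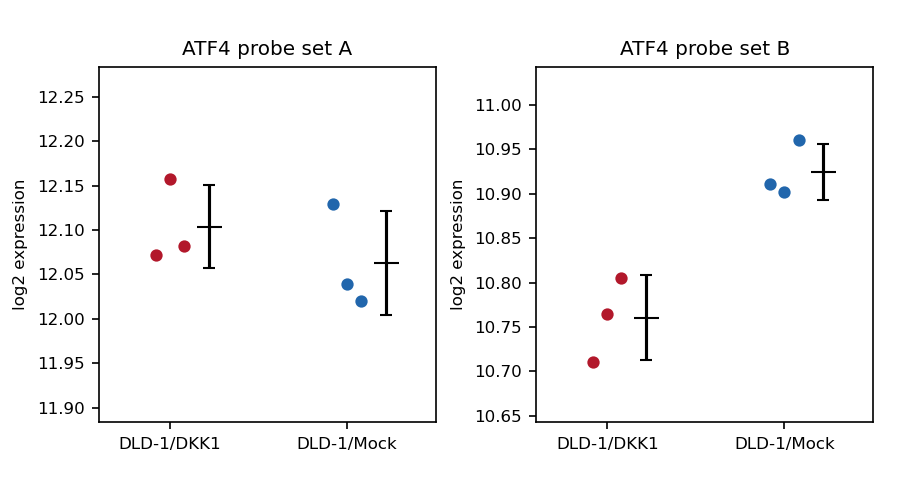
Log2 expression (vertical axis, each panel with its own range of equal height) of the ATF4 probe sets A and B, with points for single arrays and bars for the mean ± SD (n = 3). In A the groups overlap, and in B the DLD-1/DKK1 arrays at 10.71 to 10.81 lie below the DLD-1/Mock arrays at 10.90 to 10.96.

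The amino acid genes of the ATF4 branch had 6 of 6 members above 0, with a median of 0.04 and no member past the threshold. PSAT1, the transaminase of serine synthesis, had 11.97, 11.95 and 11.89 in DLD-1/DKK1, against 11.84, 11.82 and 11.88 in DLD-1/Mock. The groups were narrowly apart, at 0.09 (SE 0.04, limma adjusted p = 0.564). PHGDH, which starts that pathway, had 12.20, 12.20 and 12.23 in DLD-1/DKK1 and 12.12, 12.18 and 12.15 in DLD-1/Mock, again apart, at 0.06 (SE 0.04, limma adjusted p = 0.654). ASNS, asparagine synthetase and a standard reporter of ATF4 activity whose element is printed above, had 10.67, 10.65 and 10.58 in DLD-1/DKK1, against 10.62, 10.58 and 10.59 in DLD-1/Mock. Its groups overlapped, with a fold change of 0.04 (SE 0.04, 95% interval -0.07 to 0.14, limma adjusted p = 0.799). SHMT2, the mitochondrial serine hydroxymethyltransferase, had 0.03. SLC7A5 and SLC3A2, the light and heavy chains of the LAT1 transporter of large neutral amino acids, had 0.03 and 0.01.

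The spread between dishes differed among members, and the SE from limma differed less (0.036 for SLC3A2 and 0.095 for DDIT3). The pooled SD within groups was lowest for SLC3A2 (0.00875) and SHMT2 (0.0159) and highest for DDIT3 (0.139), DNAJB9 (0.117) and DNAJC3 (0.1095), against a median of 0.0652 over all genes. Averaged over the members of a role, the ER chaperones stood at 0.07, 0.07 and 0.04 above the DLD-1/Mock mean in the DLD-1/DKK1 dishes and at 0.02, -0.03 and 0.01 in the DLD-1/Mock dishes. The stress regulators stood at 0.04, 0.13 and 0.04 in DLD-1/DKK1 and at -0.0002, -0.01 and 0.01 in DLD-1/Mock, and DKK1 2 was the highest dish. The amino acid genes stood at 0.05, 0.05 and 0.03 in DLD-1/DKK1 and at -0.0011, -0.0025 and 0.0036 in DLD-1/Mock. For sensors and ERAD genes the dishes of both groups were intermixed. Differences between the roles were not tested.

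**Figure D5:**
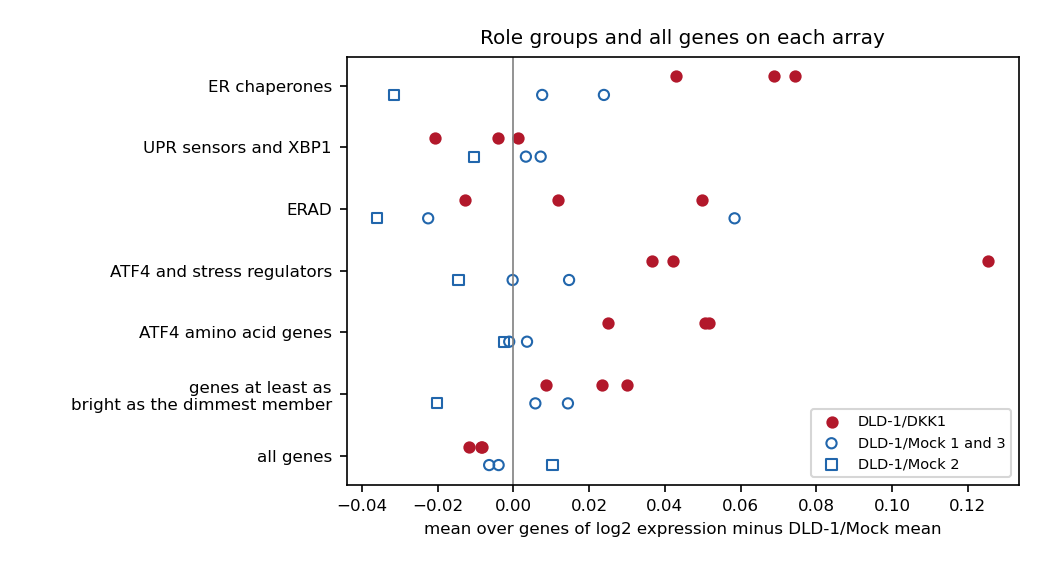
Mean over the genes of each role of log2 expression minus the gene's DLD-1/Mock mean (horizontal axis) on each array, with filled points for DLD-1/DKK1, open points for DLD-1/Mock and a square for Mock 2. The 8596 genes at least as bright as the dimmest member are shifted in the same direction as the chaperones, with a DLD-1/DKK1 mean of at most 0.03.

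Further genes of the pathway, beyond the members, were counted in the same fit. Of 103 measured genes in 6 lists, 0 passed in limma over all probe sets and 72 (69.9%) lay above 0. An unadjusted p under 0.05 was reached by 8 genes that were higher and 4 that were lower. Of all genes, 46.4% lay above 0, and 4.67% were so called higher and 5.45% lower. Of the genes at least as bright as the dimmest member, these shares were 63.0%, 7.26% and 3.61%. Other ER folding genes had 11 of 15 above 0 and a median of 0.08. Among them CALU, a calcium-binding protein of the secretory route, had 0.13 and PRDX4, the ER peroxiredoxin, 0.14, both with all DLD-1/DKK1 arrays above DLD-1/Mock. Other ERAD genes had 11 of 14 above 0 with a median of 0.02, and genes of ER translocation and vesicle transport 18 of 22 with the same median. Neither of these lists had a gene at an unadjusted p under 0.05.

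Other regulators of the response and of eIF2alpha were the list with most genes below 0, 9 of 17, with a median of -0.03. ATF5, a relative of ATF4, had 8.53, 8.54 and 8.54 in DLD-1/DKK1, against 8.73, 8.65 and 8.80 in DLD-1/Mock, a fold change of -0.19 (SE 0.05, limma adjusted p = 0.405). ATF3, an early stress-induced factor, had -0.15 but was dim, at percentile 40.2. After their values were seen, 2 more genes of this list are named, NUPR1 (-0.13) and SESN2 (0.14), both known ATF4 targets.

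Other ATF4 amino acid and one-carbon genes had 8 of 16 above 0 and a median of 0.01. CTH, which makes cysteine from cystathionine, had 8.99, 8.89 and 8.92 in DLD-1/DKK1, against 8.67, 8.51 and 8.68 in DLD-1/Mock. This was the largest difference of the lists, at 0.31 (SE 0.06, limma adjusted p = 0.259), and the groups were well apart. VLDLR, a lipoprotein receptor induced by ATF4, had 0.18. The aminoacyl-tRNA synthetases, which charge tRNAs and of which many are ATF4 targets, had 16 of 19 above 0 with a median of 0.03, and IARS1 had 0.09. The ATF4 element was found in the windows of 7 of 16 of these synthetases.

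Genes were also grouped by promoter letters alone. Of the 14230 measured genes with a window, 48.1% had a log2 fold change above 0, with a median of -0.0038. Of 19 measured genes with ERSE letters, 10 lay above 0 with a median of 0.0045, and of the 12 that are not members, 5 did with a median of -0.01. For the ATF4 element, 255 of 506 non-member genes lay above 0 with a median of 0.0008. Of the 506, 2 passed, against 17 of the 14230. With ERSE-II 7 of 17 genes and with the UPRE core 76 of 159 lay above 0. These genes were not matched to the members in brightness, the differences between the groupings were not tested, and the grouping was added after the data were seen.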

How the data were processed

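RNA of 3 DLD-1/DKK1 and 3 DLD-1/Mock dishes was labelled and put on Affymetrix arrays of the type Human Gene 1.0 ST. The authors made the deposited log2 values by robust multichip averaging (RMA, affy package), which corrects background, equalises array distributions and summarises probes, so that a shift common to most transcripts is removed and small changes of dim probe sets are compressed. For tool versions and annotation build, the sources used here gave nothing. The raw scans were not used.

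Of 32321 probe sets, 19158 carry 1 gene symbol, 1388 several and 11775 none. Symbols were updated by gene number (19128 matched, GRCh38.p14). Groups came from the sample titles. All probe sets were fitted with limma 3.58.1 in R 4.3.3 (lmFit, eBayes, 4 residual and 2.56 prior degrees of freedom), with DLD-1/DKK1 minus DLD-1/Mock as the two-sided contrast and Benjamini-Hochberg adjustment over all probe sets and a threshold of 0.05. SE and 95% intervals are moderated. The fit was tested on simulated data with larger changes than those of the members. It therefore does not show whether changes of their size would be called. The number of arrays limits the precision.

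The members, lists and rules were chosen with earlier results of these data known. Arrays and statistics are given in full for the 2 members of each role with the smallest p and for HSPA5, XBP1, ATF4, DDIT3 and ASNS, and up to 2 genes with an unadjusted p under 0.05 are named from each further list. Replicate numbers were not taken as pairs. Alternatives were 3 scalings, filters on brightness and annotation, another prior, array weights, the replicate number as a block, the mean of all probe sets, each array left out and, added later, the dimmer ATF4 probe set. A planned list by protein C-terminus was not run, as no protein table was used here. Figures were drawn with matplotlib 3.10.9.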

Additional observations from a re-analysis of the deposited data

How the results depend on the processing

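No member passed the threshold under any of the 15 alternatives listed beforehand, and 19 of the 33 kept their direction under all alternatives run. Over the whole array 28 probe sets passed, against 17 once medians were centred, 66 when tests were limited to the brighter part, 98 when limited to annotated ones, 53 under the prior that was trended and robust, 59 with array weights, and 2 to 6 with 1 array left out. The cause was not tested.

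Median centring moved the median of all probe sets by 0.05 and put 31 of 33 members above 0. The medians then became 0.0933 over all members, 0.1004 for ER chaperones, 0.0433 for sensors with XBP1, 0.0618 for ERAD, 0.1199 for the stress regulators and 0.0875 for the amino acid genes, and PDIA6 (0.0471), MANF (0.0285), XBP1 (0.0452), ATF6 (0.0414), HERPUD1 (0.0293) and CEBPB (0.0493) turned above 0. Under quantile normalisation the medians were -0.0265 for the sensors and 0.0228 for the amino acid genes, under cyclic loess -0.0301 and 0.0151, and array weights gave -0.0344 for the sensors. CALR turned to -0.0034 with quantile normalisation and -0.0026 with cyclic loess, SLC3A2 to -0.0016 and -0.0117, and CANX to -0.0029 with array weights. ATF4 had -0.0616 as the mean of its probe sets and -0.164 with the dimmer one.

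With 1 array left out the median ran from 0.0257 to 0.0521 over all members, 0.0429 to 0.0665 for ER chaperones, -0.023 to 0.0175 for the sensors, -0.0252 to 0.0452 for ERAD, 0.0199 to 0.091 for the stress regulators and 0.0257 to 0.0438 for the amino acid genes. Members that crossed 0 ran from -0.0003 to 0.0352 (CALR), -0.018 to 0.0582 (CANX), -0.0244 to 0.0132 (PDIA6), -0.0268 to 0.1287 (DNAJB9), -0.003 to 0.056 (CRELD2), -0.0525 to 0.0207 (MANF), -0.0318 to 0.0312 (XBP1), -0.0653 to 0.0283 (ATF6), -0.0179 to 0.0916 (SEL1L), -0.0122 to 0.1404 (DDIT3) and -0.0192 to 0.0091 (CEBPB). Without Mock 2 the ERAD median was -0.0252, and without DKK1 2 that of the stress regulators was 0.0199.

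The replicate numbers were checked for pairing. Deviations from the group means of same-numbered arrays correlated at 0.1046, 0.0082 and -0.1370. With so few arrays this cannot tell whether dishes of the same number were handled together. With the replicate number as a block, 1 probe set passed and 0 members, in place of 28 and 0, and no DLD-1/DKK1 array correlated best with the DLD-1/Mock array of its own number.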

Other observations

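Chaperones outside the ER were counted apart from the members and from the further lists above. Of 14 measured cytosolic and mitochondrial chaperones and proteases, 10 lay above 0 with a median log2 fold change of 0.02. In limma over all probe sets 0 passed, while 3 were higher at an unadjusted p under 0.05. Of all genes 4.67% were so called higher, and of those at least as bright as the dimmest member 7.26%. HSPH1, a cytosolic HSP110 that exchanges the nucleotide of HSP70, had 11.89, 11.88 and 11.89 in DLD-1/DKK1, against 11.72, 11.68 and 11.66 in DLD-1/Mock. Its groups were well apart, with a fold change of 0.20 (SE 0.04, limma adjusted p = 0.233), above that of every ER chaperone measured. LONP1, the mitochondrial Lon protease, had 9.59, 9.59 and 9.62 in DLD-1/DKK1 and 9.41, 9.46 and 9.40 in DLD-1/Mock, a fold change of 0.18 (SE 0.04, limma adjusted p = 0.343). HSPE1, the mitochondrial co-chaperonin, had 0.16 and is named after its value was seen.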
